A study of Mus musculus with 384 samples.

Results

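Neuropeptide genes were followed across single cells of young mice that had been sorted as dopamine neurons. The genes were *Cck*, *Grp*, *Vip*, *Nts*, *Calca*, *Cartpt*, and *Adcyap1*, 7 of the 25681 genes with a count in a retained cell, chosen by symbol from the count table as the peptide genes known from ventral tegmental dopamine neurons. All 7 were found in the table and all 7 had counts. Cells with at least 500000 counts on genes were retained, which left 209 of 384 cells, and 10 counts of a gene made a cell positive for it.

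The cells came from 8 untreated DAT-IRES-Cre;Ai9 mice on a C57BL6/J background, 5 labelled male and 3 labelled female, aged 24–28 d (males) and 25–36 d (females) by the sample labels. In these mice Cre is driven from the *Slc6a3* (dopamine transporter) locus and switches on the red reporter tdTomato, so that a red cell has or once had activity of that locus. There was no group with another genotype or a treatment, and the comparisons were between mice, between the sexes, and between cells with and without a peptide. Cells were sorted for tdTomato and for exclusion of the dye propidium iodide after dissection of the midbrain together with the hypothalamus, and each mouse was captured in its own Fluidigm C1 run, so mouse and run cannot be told apart. The labels call every cell a dopamine neuron without naming a midbrain region.

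Neuropeptides are made as long precursors, cut by prohormone convertases and trimmed by further enzymes in dense-core vesicles, and released alongside the fast transmitter, after which they act on G protein-coupled receptors. Dopamine neurons of the ventral tegmental area, a midbrain nucleus that projects to the nucleus accumbens and other forebrain targets, have long been known to carry such peptides, cholecystokinin and neurotensin first among them. Several peptide genes respond to neuronal activity through cyclic AMP and the transcription factor CREB, which binds a DNA element with the core letters TGACG.

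The stretches of promoter that hold this core were read for the peptides because cyclic AMP regulation is the best known feature that several of these genes share. In the 250 bases before the RefSeq start (GRCm38.p6), TGACG or its reverse complement CGTCA was found for all 6 peptides with a promoter entry, against 19.8% of 27025 genes. The longer TGACGTC or GACGTCA was found for 3 of the 6 against 3.16% of genes, and the full palindrome TGACGTCA, which contains the shorter forms, for *Cartpt* alone among them against 1.77% of genes. Each line runs 5′ to 3′ on the strand of the gene with the matched letters in capitals and 20 bases on either side.
Cck: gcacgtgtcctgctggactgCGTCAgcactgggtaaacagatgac
Vip: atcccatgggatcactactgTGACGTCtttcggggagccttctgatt
Nts: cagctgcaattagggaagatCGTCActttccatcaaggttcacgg
Calca: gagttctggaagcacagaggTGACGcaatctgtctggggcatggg
Cartpt: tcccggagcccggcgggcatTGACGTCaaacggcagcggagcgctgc
Adcyap1: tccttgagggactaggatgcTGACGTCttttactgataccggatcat
The windows lie at chr9:121495717-121495761 on the minus strand, 47 bases before the start, for *Cck*, at chr10:5639119-5639165 on the plus strand, 79 bases before it, for *Vip*, and at chr10:102490560-102490604 on the minus strand, 166 bases before it, for *Nts*. Those of *Calca* (chr7:114636398-114636442, minus strand), *Cartpt* (chr13:99900769-99900815, minus strand), and *Adcyap1* (chr17:93198906-93198952, plus strand) lie 65, 112, and 91 bases before the start. For *Calca*, *Cartpt*, and *Adcyap1* the windows lie inside the gene spans given below, so the start used was not the outer end of the span. *Adcyap1* had another start among the promoter entries, and the same letters lie 242 bases before that one. A match of letters is a description of the sequence and does not show that a factor binds there.

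The dopamine label was checked first. At least 10 counts on each of *Th*, *Slc6a3*, *Slc18a2*, and *Ddc*, the genes for dopamine synthesis, reuptake, and vesicular loading, were found in 196 of the 209 cells (93.8%), and 4 cells had at most 1 of the 4 genes. *En1*, a transcription factor of midbrain dopamine neurons, was positive in 178 cells. The 4 latter cells held none of the peptides, whereas of the 9 cells with 3 of the 4 genes, 7 were positive for *Adcyap1*, 6 for *Cartpt*, and 2 for *Nts*. No marker reached 10 counts in 208 cells for microglia, 207 for endothelium, and 198 for astrocytes, while summed oligodendrocyte markers ranged from 19.2 to 1797 CPM (counts per 1000000 counts on genes) over mice with *Mog* at 0. Summed markers of GABA neurons ranged over mice from 2.82 to 1010.2 CPM, and those of hypothalamic neurons from 15.5 to 360.5 CPM. The retained cells had 500672–1.54482e+06 counts (median 780484) and 3189–10740 detected genes (median 9123), with 12–45 cells per mouse.

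*Cck* was the most widespread of the peptide genes. It encodes cholecystokinin, whose brain form is an octapeptide, and it was positive in 126 of 209 cells (60.3%, exact 95% interval 53.3–67.0%). A further 27 cells had 1–9 counts. Across mice 1 to 8, the share of *Cck*-positive cells was 22.2, 64.7, 71.1, 25.0, 65.8, 41.2, 79.2, and 66.7% (mean 54.5% ± 21.9, SD, n = 8). The shares fell into a lower range in mice 1, 4, and 6 and a higher one in the other 5. *Cck* counts came from many cells, with the single highest cell, in mouse 6, holding 8.40% of them. The gene lies at chromosome 9, 121489824–121495694.

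*Grp* and *Adcyap1* followed. *Grp* encodes gastrin-releasing peptide, a bombesin-like peptide, at chromosome 18, 65872751–65886599, and was positive in 77 cells (36.8%, 30.3–43.8%). Its share in mice 1 to 8 was 27.8, 52.9, 17.8, 8.33, 28.9, 41.2, 58.3, and 61.9% (mean 37.1% ± 19.6). *Adcyap1* encodes PACAP, a peptide related to that of *Vip*, at chromosome 17, 93198245–93206541. It was positive in 65 cells (31.1%, 24.9–37.9%), with 33.3, 35.3, 11.1, 50.0, 28.9, 35.3, 37.5, and 47.6% in mice 1 to 8 (mean 34.9% ± 12.0). The lowest *Adcyap1* share was in mouse 3, which also had the second lowest *Grp* share but the second highest *Cck* share.

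*Cartpt* and *Calca* were found in fewer cells. *Cartpt* encodes CART, a peptide induced in the striatum by psychostimulants, at chromosome 13, 99898483–99910179, and was positive in 41 cells (19.6%, 14.5–25.7%). Its shares in mice 1 to 8 were 27.8, 14.7, 20.0, 41.7, 18.4, 11.8, 12.5, and 23.8% (mean 21.3% ± 9.89). *Calca*, at chromosome 7, 114625981–114636910, gives rise to calcitonin or to calcitonin gene-related peptide by alternative splicing, and counts per gene cannot separate the transcripts. It was positive in 17 cells (8.13%, 4.81–12.7%), all in mice 1, 2, 5, 7, and 8, where the shares were 5.56, 17.6, 10.5, 16.7, and 9.52%. No positive cell was found in mice 3, 4, and 6.

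*Vip* and *Nts* were rare. *Vip*, the gene of vasoactive intestinal peptide at chromosome 10, 5639193–5647617, was positive in 6 cells (2.87%, 1.06–6.14%) from mice 1, 5, 6, and 7. A single cell of mouse 7 with 3042 counts held 80.9% of all *Vip* counts, followed by a cell of mouse 6 with 571 and a cell of mouse 5 with 87, and another 17 cells had 1–9 counts. *Nts*, the gene of neurotensin at chromosome 10, 102481756–102490418, was positive in 3 cells (1.44%, 0.297–4.14%), 1 each in mice 4, 6, and 8, with no cell between 1 and 9 counts. The cell of mouse 8 held 97.2% of the *Nts* counts. After every cell was thinned to 500000 counts, the positive cells numbered 119 for *Cck*, 72 for *Grp*, 62 for *Adcyap1*, 30 for *Cartpt*, 15 for *Calca*, 5 for *Vip*, and 1 for *Nts*, in the same order as before.

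**Figure D1:**
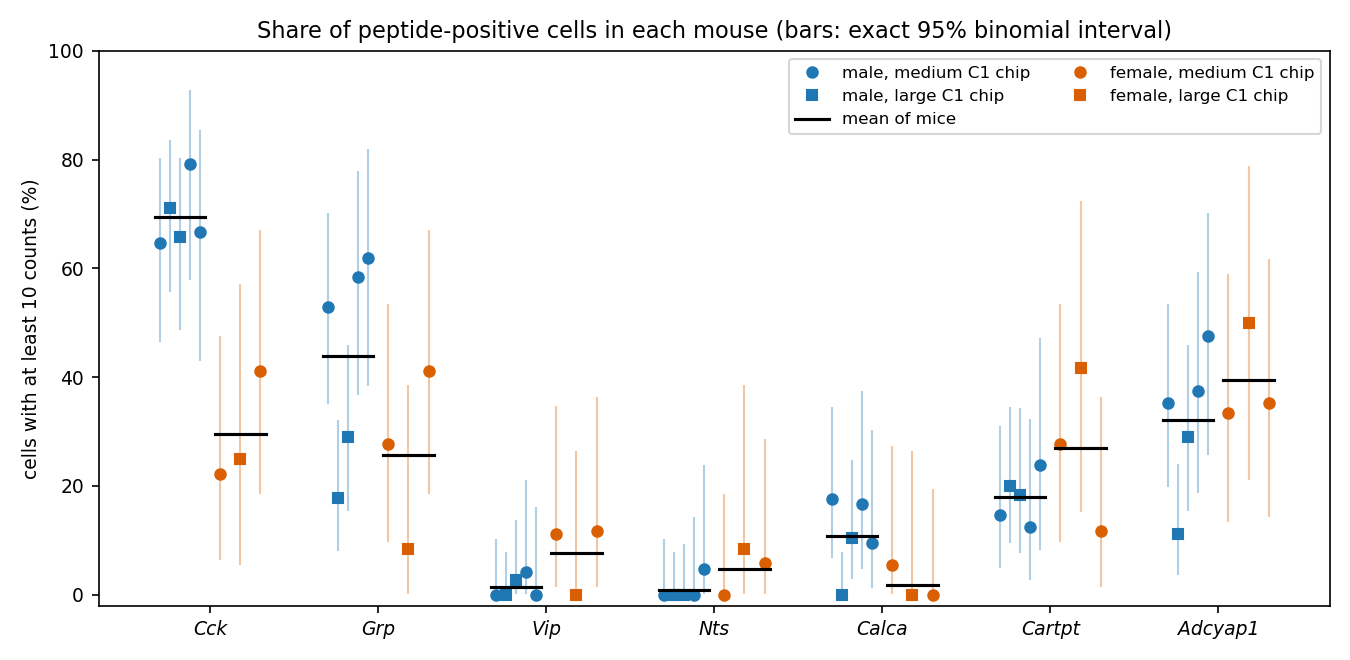
Percent of retained cells with at least 10 counts of each peptide gene (vertical axis) in each of mice 1 to 8, with exact 95% intervals, in blue for males and orange for females, as circles for medium and squares for large C1 chips, and with a black bar at the mean of each sex. *Cck* shares of the 5 males (64.7–79.2%) lie above those of the 3 females (22.2–41.2%), while the sexes overlap for *Grp*, *Cartpt*, and *Adcyap1*.

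The level in positive cells did not follow the order of the shares. Per kilobase of exon, the median level among positive cells was 109.5 CPM for *Grp* and 85.3 CPM for *Cck*, against 52.2 for *Vip*, 48.2 for *Adcyap1*, 43.9 for *Calca*, 34.1 for *Cartpt*, and 13.6 for *Nts*. Without the correction for length, *Adcyap1*, which has the longest exons, had the highest median at 171 CPM (range 11.1–1457). *Grp*-positive cells ranged from 9.65 to 1098 CPM, *Cck*-positive cells from 10.8 to 1703 CPM, *Cartpt*-positive cells from 10.4 to 658 CPM, and *Calca*-positive cells from 9.25 to 297 CPM. The highest single value of the 7 genes was the 3075 CPM of *Vip*, while that of *Nts* was 900.2 CPM. Averaged over all 209 cells and per kilobase, *Cck* came first at 91.3 CPM and *Grp* second at 61.6, followed by *Adcyap1* at 22.0, *Cartpt* at 15.1, *Vip* at 11.6, *Calca* at 4.84, and *Nts* at 3.58. In the sums of each mouse the CPM of *Cck* ranged from 65.6 to 146 and that of *Grp* from 12.6 to 148.

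**Figure D2:**
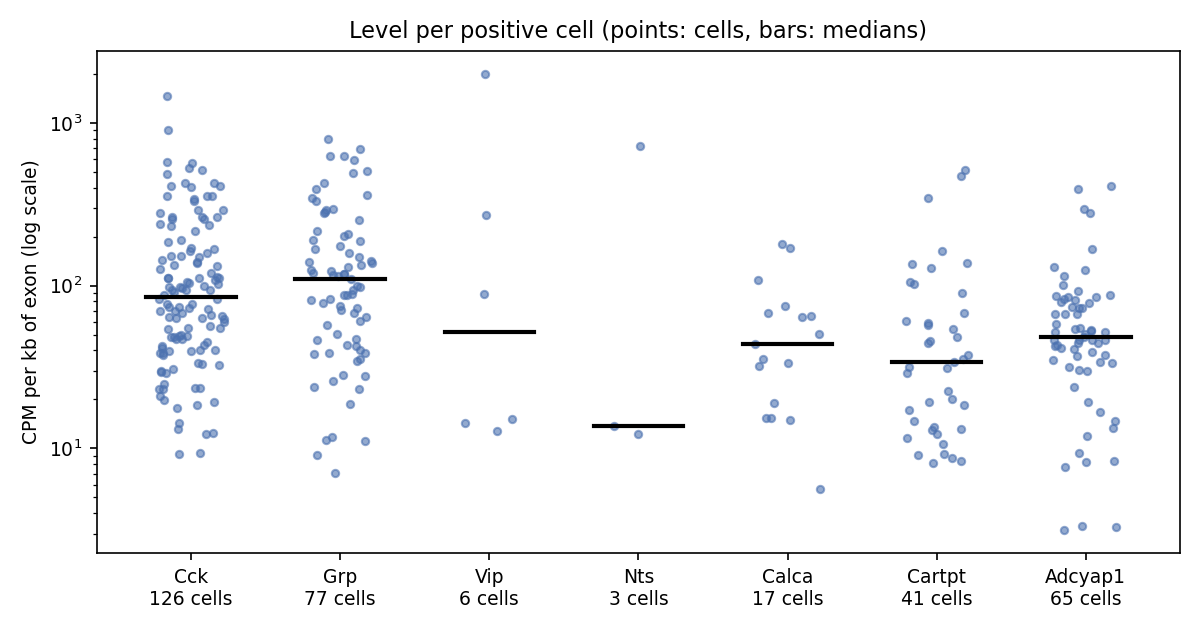
Level of each peptide gene in its positive cells in CPM per kilobase of exon on a log axis, where a point is a cell and a bar the median. The points of the 7 genes overlap, with medians from 13.6 for *Nts* to 109.5 for *Grp*.

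Genes for the processing and release of peptides were widespread. Of 15 genes for prohormone processing and dense-core vesicles, all were positive in at least 10 cells, and 208 cells were positive for at least 3 of them. *Cpe*, which trims basic residues, was positive in 99.0% of cells at a median of 887 CPM, and *Scg2*, a granin of dense-core vesicles, in 97.6% at 2211 CPM. The convertases *Pcsk2* and *Pcsk1* were positive in 82.8 and 73.2% of cells. Among receptors for the 7 peptides, *Ntsr1*, the high-affinity neurotensin receptor, was positive in 162 cells (77.5%) although *Nts* itself was positive in 3. The PACAP receptor *Adcyap1r1* was positive in 159 cells (76.1%) and the sorting receptor *Sort1* in 141 (67.5%). *Calcrl* was positive in 38 cells, the cholecystokinin receptor *Cckar* in 25, *Calcr* in 24, the gastrin-releasing peptide receptor *Grpr* in 10, *Cckbr* and *Vipr2* in 6 each, *Ntsr2* in 3, and *Ramp1* in 1. *Vipr1* had no positive cell.

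Most cells carried at least 1 of the peptides and many carried several. None was positive in 37 cells (17.7%), 1 in 63 (30.1%), 2 in 68 (32.5%), 3 in 29 (13.9%), 4 in 11 (5.26%), and 5 in 1 cell. From the shares in each mouse and with the genes combined independently, 25.7, 76.3, 69.6, 30.6, 6.28, and 0.514 cells would hold 0, 1, 2, 3, 4, and 5 peptides. No cell held 6 or 7. The mean number of peptides per cell was 1.28, 1.85, 1.20, 1.33, 1.55, 1.47, 2.08, and 2.14 in mice 1 to 8. The share of cells with none was lowest in mice 7 and 8 (4.17 and 4.76%) and highest in mouse 1 (38.9%).

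**Figure D3:**
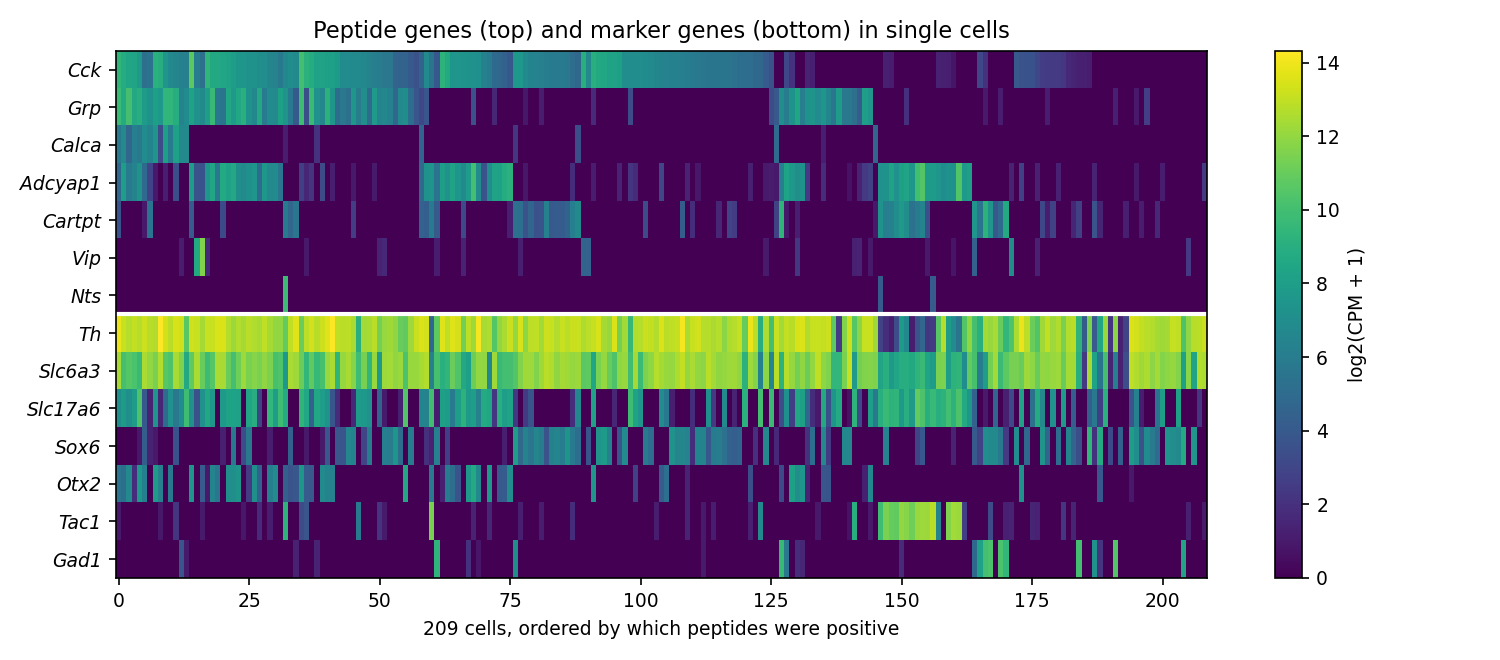
Log2(CPM + 1) of the peptide genes (upper rows) and of marker genes (lower rows) in the 209 retained cells, 1 column per cell, ordered by which peptides are positive. *Cck* and *Grp* run through many columns, *Vip* and *Nts* through 6 and 3, and the 37 cells with no positive peptide include 34 positive for *Th*.

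Of the possible combinations 29 were seen, counting the cells with none, and 12 of them were seen in a single cell. *Cck* alone was the most frequent, in 35 cells from 6 mice, followed by *Cck* with *Grp* in 23 cells (22.7 expected within mice) and *Cck*, *Grp*, and *Adcyap1* in 15 cells (11.5 expected). *Cck* with *Adcyap1* was found in 14 cells, *Cck* with *Cartpt* in 13, and *Grp* alone in 13. *Cartpt* with *Adcyap1* and no other peptide was found in 9 cells where 3.81 were expected, and *Cck*, *Grp*, and *Calca* in 7 cells where 2.87 were expected. These expected numbers are descriptions and were not tested.

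Marker genes were read in cells of some of the combinations, and differences between combinations were not tested. All 13 *Cck* and *Cartpt* cells were positive for *Th* and 12 for *Sox6*, a transcription factor of nigral dopamine neurons, with *Slc17a6*, the vesicular glutamate transporter VGLUT2, in 1. All 14 *Cck* and *Adcyap1* cells were negative for *Sox6*, while 13 were positive for *Slc17a6* and 10 for *Otx2*, a transcription factor of ventral tegmental dopamine neurons. Of the 15 cells with *Cck*, *Grp*, and *Adcyap1*, all were positive for *Calb1* (the calcium buffer calbindin), 13 for *Lpl* (lipoprotein lipase), and 12 for *Neurod6*, a transcription factor of a ventral tegmental subset. The 9 *Cartpt* and *Adcyap1* cells came from mice 1, 2, 4, 5, and 6. Their *Th* was at a median of 9.59 CPM (range 1.12–223), *Slc6a3* at 487, *Slc17a6* at 619, and the tachykinin gene *Tac1* at 3407 CPM (1803–4743), and none was positive for *En1* or for *Otx2*. Low *Th* with high *Tac1* was also found outside this combination, in 3 cells with *Adcyap1* alone (*Th* at 44.5, 118, and 234 CPM, *Tac1* at 4562, 5173, and 3090 CPM), in 1 cell with *Cck*, *Cartpt*, and *Adcyap1* (26.0 and 2822 CPM), and in 2 *Nts*-positive cells that also held *Adcyap1* (*Th* at 4.65 and 6.16 CPM, *Tac1* at 7324 and 939.6 CPM). Of the 6 cells with *Cartpt* alone, 5 were positive for *Gad1* and 5 for *Gad2*, the enzymes of GABA synthesis, at a median *Gad1* level of 877 CPM. Of the 37 cells with none of the peptides, 20 were positive for *Sox6* and 0 for *Neurod6*. Over all 209 cells, *Calb1* was positive in 156, *Slc17a6* in 113, *Lpl* in 79, and *Sox6* in 76. *Neurod6* was positive in 49, *Otx2* in 48, *Gad2* in 42, *Tac1* in 21, and *Gad1* in 15.

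To ask which peptides were found in the same cells, the number of cells positive for both genes was compared in each mouse with the number expected from the shares of the genes in that mouse. The differences were tested over mice with an exact sign-flip permutation test, two-sided, whose smallest p with 8 mice is 0.00781, and adjusted over all 12105 genes tested with a peptide. *Cck* and *Grp* were both positive in 2, 12, 8, 0, 10, 5, 11, and 10 cells of mice 1 to 8. The sum of 58 cells compares with 48.6 expected, with more than expected in 6 of 8 mice (exact p = 0.0312, adjusted p = 0.579). *Grp* was positive in 46.0% of *Cck*-positive and in 22.9% of *Cck*-negative cells. With *Cck*, 5.95% of all genes were found in more cells than expected at an unadjusted p under 0.05 and 1.28% in fewer, and no gene passed after adjustment for *Cck* or any other peptide. The *Cck* and *Grp* pair was the only 1 of the 21 pairs under 0.05, and its exact p was 0.0312–0.0625 when 1 mouse was left out and under 0.05 in 6 of 13 alternatives in all (0.0156–0.203).

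*Calca*-positive cells were mostly cells that also held *Grp* and *Cck*. Of the 17 *Calca*-positive cells, 15 were positive for *Grp* (8.18 expected) and 15 for *Cck* (11.2 expected), in more cells than expected in each of the 5 mice with *Calca*-positive cells. The exact p of 0.0625 for either pair is the smallest that 5 mice allow. *Grp* with *Cartpt* lay on the other side, with 7 cells where 13.7 were expected and fewer in 6 of 8 mice (exact p = 0.0547). *Cartpt* was positive in 9.09% of *Grp*-positive and in 25.8% of *Grp*-negative cells. *Cck* with *Cartpt* was found in 23 cells where 23.1 were expected (exact p = 0.984). Mouse 3 held more such cells than expected (9 against 6.4), and without it the difference was -2.73 cells (exact p = 0.0312), as it was -4.35 cells from 50 counts (exact p = 0.0312). *Cck* with *Adcyap1* was found in 42 cells (37.7 expected, exact p = 0.195) and *Grp* with *Adcyap1* in 29 (26.5 expected, exact p = 0.281), neither with a p under 0.05. The median total was 785724 counts in *Cck*-positive and 733039 in *Cck*-negative cells, and 990474 and 763494 for *Calca*, and the part of depth in these pairs was not tested.

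**Figure D4:**
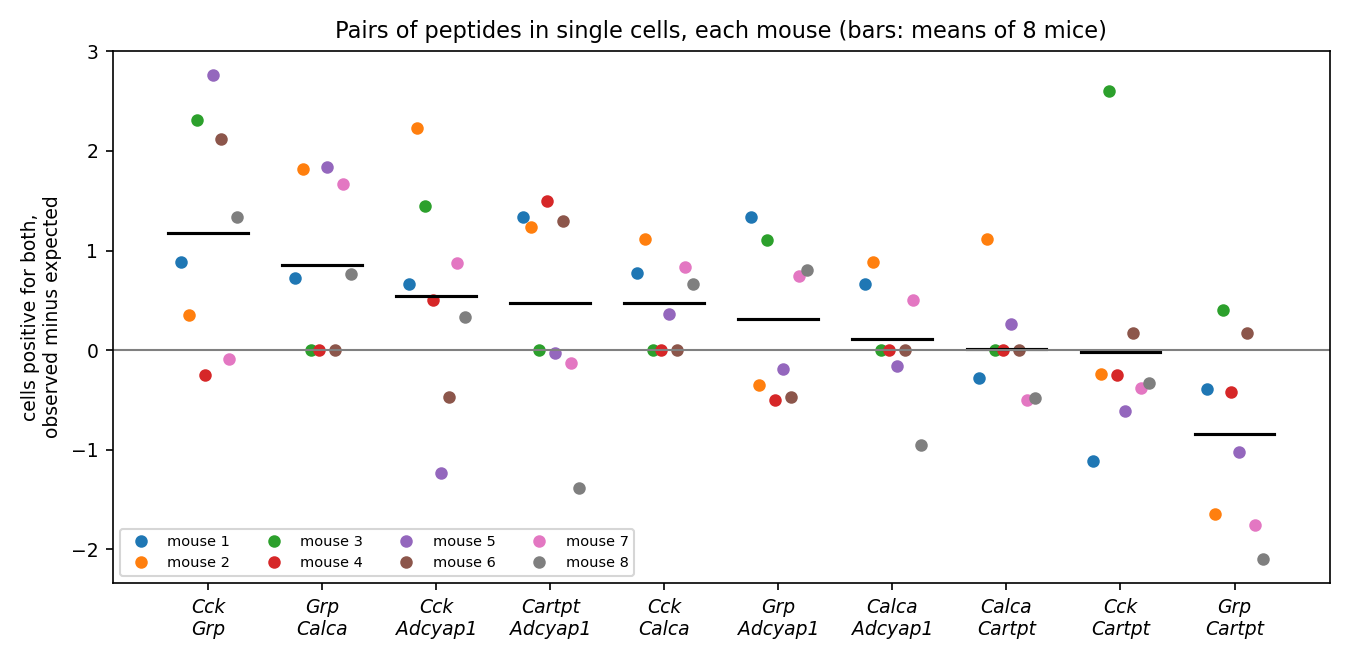
Observed minus expected number of cells positive for both genes of a pair (vertical axis, cells) for the 10 pairs of *Cck*, *Grp*, *Calca*, *Cartpt*, and *Adcyap1*, where points are mice 1 to 8 and bars their mean. *Cck* with *Grp* lies above 0 in 6 of 8 mice and *Grp* with *Cartpt* below 0 in 6 of 8.

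*Adcyap1* was compared with marker genes of ventral tegmental and nigral dopamine neurons in the same way. *Slc17a6* was positive in 83.3, 91.7, 80.0, 100, 81.8, 100, 77.8, and 90.0% of *Adcyap1*-positive cells of mice 1 to 8, and in 33.3, 59.1, 20.0, 33.3, 37.0, 36.4, 53.3, and 63.6% of *Adcyap1*-negative cells. The lowest share among positive classes was above the highest among negative ones, and how many of all genes did so was not counted. Both genes were positive in 57 cells where 39.1 were expected, in more than expected in 8 of 8 mice (exact p = 0.00781, the smallest possible, with an adjusted p of 0.571–0.641 for all listed genes under 0.05). All 6 ventral tegmental markers of a list, *Slc17a6*, *Calb1*, *Otx2*, *Neurod6*, *Gpr83*, and *Lpl*, were found with *Adcyap1* in more cells than expected at an unadjusted p under 0.05, against 4.38% of all genes. *Lpl* was positive in 73.8% of *Adcyap1*-positive and 21.5% of *Adcyap1*-negative cells, and *Otx2* in 46.2 and 12.5%. Over 13 alternatives 5 of these markers kept an exact p under 0.05 in all 13, and *Calb1* did in 6 (0.00781–0.0625).

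Of the 6 nigral markers, 3 were found with *Adcyap1* in fewer cells than expected. *Sox6* was positive in 9.23% of *Adcyap1*-positive and 48.6% of *Adcyap1*-negative cells, with fewer cells than expected in 7 of 8 mice (exact p = 0.0156). *Ndnf*, a secreted neurotrophic factor, was positive in 6.15 and 44.4% (0 of 8 mice above, exact p = 0.00781), and *Aldh1a7*, an aldehyde dehydrogenase, in 15.4 and 44.4% (exact p = 0.0312). Over the same alternatives *Sox6* kept an exact p under 0.05 in 13, *Ndnf* in 12, and *Aldh1a7* in 6. At an unadjusted p under 0.05, 2.49% of all genes were in fewer cells than expected. *Aldh1a1*, another nigral marker, was positive in 78.5% of *Adcyap1*-positive and 79.2% of *Adcyap1*-negative cells (exact p = 0.609), at medians of 1272 and 440 CPM. The autoreceptor gene *Drd2* was positive in 50.8% of *Adcyap1*-positive and 77.8% of *Adcyap1*-negative cells (exact p = 0.0234, under 0.05 in 8 of 13 alternatives). Of 11 genes of a dopamine neuron list, *Drd2* was the only 1 in fewer cells than expected at an unadjusted p under 0.05. In more cells than expected were *Nr4a2* (exact p = 0.0312, under 0.05 in 5 of 13 alternatives) and *Ret* (exact p = 0.0156, in 10 of 13). The median *Slc6a3* level was 1309 CPM in *Adcyap1*-positive and 3746 CPM in *Adcyap1*-negative cells, and the median *Th* level was 5795 and 6516 CPM. *Th* was positive in 58 of the 65 *Adcyap1*-positive cells (89.2%) and in 97.2% of *Adcyap1*-negative cells, and the *Adcyap1*-positive cells without it included 4 of the 6 in mouse 4 and 2 of the 6 in mouse 6. *Tac1* was positive in 24.6% of *Adcyap1*-positive and 3.47% of *Adcyap1*-negative cells (16 cells, 7.73 expected, exact p = 0.0469, under 0.05 in 6 of 13 alternatives). *Mbp*, an oligodendrocyte marker, was positive in 43.1 and 19.4% (28 cells, 19.6 expected, exact p = 0.0703), and its part in the *Adcyap1* results was not tested. Read the other way, *Adcyap1* was positive in 57 of 113 *Slc17a6*-positive cells (50.4%) and in 8 of 96 *Slc17a6*-negative cells (8.33%). The markers and the peptides were chosen with results of these data known, and the counts are descriptions of the lists.

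*Grp* shared 5 of the 6 ventral tegmental markers, at an unadjusted p under 0.05 where 6.2% of all genes had one in that direction, with an adjusted p of 0.454–0.544. Over 13 alternatives *Neurod6*, *Otx2*, and *Gpr83* were under 0.05 in 13, *Lpl* in 5, and *Calb1* in 4. *Neurod6* was positive in 60.0, 50.0, 50.0, 0, 45.5, 28.6, 71.4, and 76.9% of the *Grp*-positive cells of mice 1 to 8, against 0, 6.25, 10.8, 0, 3.70, 0, 0, and 0% of *Grp*-negative cells. Mouse 4, with a single *Grp*-positive cell, had no *Neurod6*-positive cell in either class. Of the 49 *Neurod6*-positive cells, 43 were positive for *Grp*, 39 for *Cck*, 30 for *Adcyap1*, and 12 for *Calca*. Of the 6 nigral markers, 2 were also found with *Grp* in more cells than expected at an unadjusted p under 0.05. These were *Anxa1*, a calcium-binding protein, in 61.0% of positive and 21.2% of negative cells (8 of 8 mice above, exact p = 0.00781), and *Aldh1a7* in 40.3 and 32.6% (31 cells, 24.0 expected, exact p = 0.0156, under 0.05 in 11 of 13 alternatives). *En1* was positive in 98.7 and 77.3% (exact p = 0.00781). Galanin (*Gal*) and *Calcr* were found with *Grp* in fewer cells than expected (2 against 7.98 expected, exact p = 0.0312, and 3 against 9.52 expected, exact p = 0.0156), where 2.07% of all genes were. *Gal* had an exact p under 0.05 in 3 of 13 alternatives and *Calcr* in 12.

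*Cck* was found among cells with nigral and with ventral tegmental markers. *Cck* was positive in 47 of 76 *Sox6*-positive cells (61.8%), a share close to that over all cells, while *Grp* was positive in 18 (23.7%), *Cartpt* in 19 (25.0%), *Adcyap1* in 6 (7.89%), *Calca* in 1, and *Vip* and *Nts* in none of them. *Otx2* was positive in 32.5% of *Cck*-positive and 8.43% of *Cck*-negative cells, and *En1* in 98.4 and 65.1% (8 of 8 mice above and exact p = 0.00781 for either, adjusted p = 0.579). Of 11 genes of a dopamine neuron list, 5 were found with *Cck* in more cells than expected at an unadjusted p under 0.05, and 4 of 6 ventral tegmental markers were, against 5.95% of all genes. Among these, *Foxa2* was under 0.05 in 6 of 13 alternatives, *Nr4a2*, *Drd2*, and *Lpl* in 5, and *Gpr83* in 2. *Cadps2*, which primes dense-core vesicles for release, was positive in 95.2% of *Cck*-positive and 68.7% of *Cck*-negative cells (exact p = 0.00781), and *Ntsr1* in 90.5 and 57.8% (exact p = 0.0391, and under 0.05 in 5 of 13 alternatives).

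*Cartpt* was compared with the same lists. *Tac1* was positive in 29.3% of *Cartpt*-positive and 5.36% of *Cartpt*-negative cells (12 cells, 4.57 expected, exact p = 0.0156, under 0.05 in 10 of 13 alternatives). Most of these cells also held *Adcyap1*, with which *Tac1* was likewise found in more cells than expected (exact p = 0.0469). *Calcr*, the calcitonin receptor, was positive in 31.7 and 6.55% (exact p = 0.0312, under 0.05 in 5 of 13 alternatives). *En1* was positive in 61.0% of *Cartpt*-positive and 91.1% of *Cartpt*-negative cells, with fewer cells than expected in 7 of 8 mice (exact p = 0.0156). The adjusted p was 0.613–0.657 for these genes, and 4.59% of all genes were found with *Cartpt* in more cells than expected and 2.12% in fewer. *Gad1* was positive together with *Cartpt* in 9 cells where 3.33 were expected (exact p = 0.125), and the 3 cells with the highest *Cartpt* had 708–1046 CPM of *Gad1*. Of the markers tested, 0 of 3 GABA neuron genes, 1 of 5 hypothalamic genes, 1 of 6 nigral genes (*Satb1*, exact p = 0.00781, in 10 of 13), and 1 of 6 ventral tegmental genes (*Gpr83*, exact p = 0.0391, under 0.05 in 4 of 13 alternatives) were found with *Cartpt* in more cells than expected at an unadjusted p under 0.05. Of 11 dopamine neuron genes 0 were, and *En1* was the only 1 of them in fewer cells than expected at such a p. The part of other neuron types in the *Cartpt* results was not tested.

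*Calca*, *Vip*, and *Nts* can be described only by their few cells. Of the 17 *Calca*-positive cells, 15 were positive for *Lpl*, 12 for *Neurod6*, 14 for *Slc17a6*, 1 for *Sox6*, and 0 for *Tac1*. All 6 *Vip*-positive cells were positive for *Th* and *Calb1* and none for *Sox6* or *Aldh1a7*. All 3 *Nts*-positive cells were positive for *Tac1* (634–7324 CPM) and *Slc17a6* (448–830 CPM), while their *Th* was at 4.65, 6.16, and 1856 CPM. With positive cells in at most 5 mice, the sign-flip test of co-detection could not reach 0.05 for these genes from 10 counts.

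**Figure D5:**
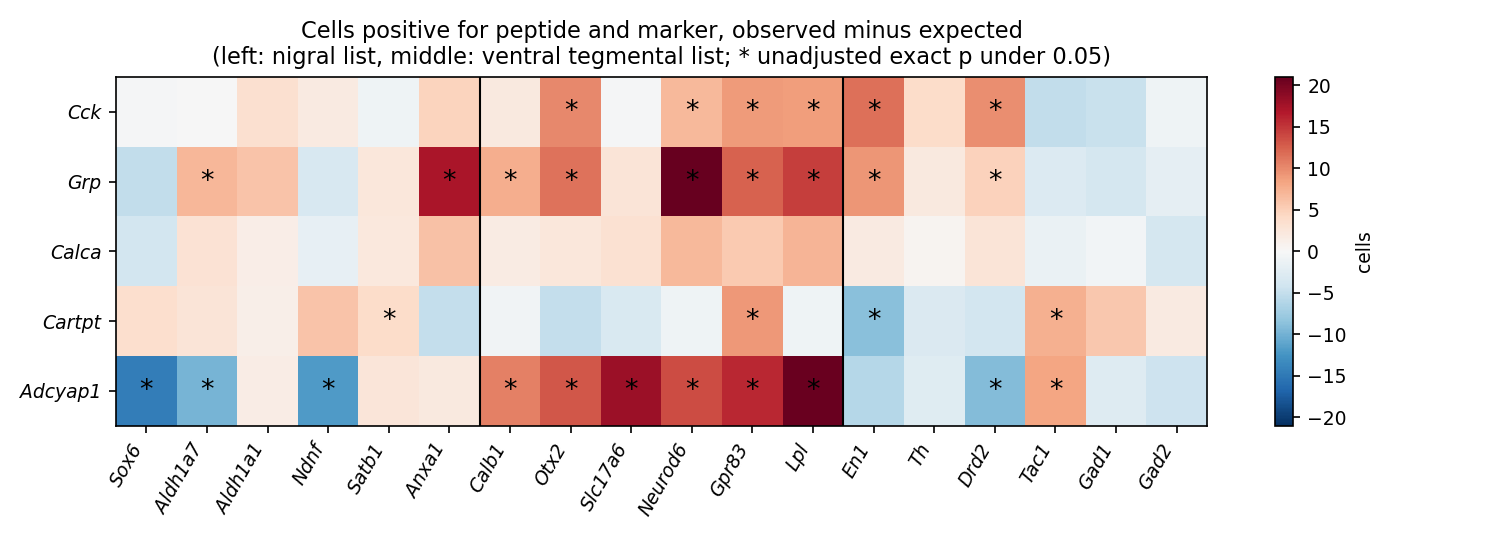
Observed minus expected number of cells positive for a peptide (vertical) and a marker gene (horizontal), summed over mice, as a color scale in cells, with an asterisk at an unadjusted exact p under 0.05. *Adcyap1* has positive values for all 6 ventral tegmental markers, up to 20.7 cells for *Lpl*, and its lowest value for *Sox6*, at -14.6 cells.

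Counts summed per mouse over positive and over negative cells were then compared across all genes with edgeR. No gene passed an adjusted p of 0.05 between *Cck*-positive and *Cck*-negative cells (12390 tested, 4.45% at an unadjusted p under 0.05), nor for *Grp* (5.9% of 12517), *Calca* (6.74% of 12921), or *Cartpt* (4.94% of 11967). DESeq2 called 15 (0.126%), 51 (0.424%), 203 (1.6%), and 34 (0.284%) of the genes it tested in these comparisons. For *Adcyap1*, 1 of 12281 genes (0.00814%) passed with edgeR, where 7.67% had an unadjusted p under 0.05, and 99 (0.822%) passed with DESeq2. That gene was *Adamts2*, a protease that processes procollagen, with 12.6, 92.8, 23.2, 72.5, 67.8, 30.5, 16.6, and 5.17 CPM in *Adcyap1*-positive cells of mice 1 to 8 and 0.744, 2.97, 1.20, 1.03, 2.14, 1.41, 2.81, and 2.32 CPM in negative cells. The lowest positive class lay above the highest negative one, and the share of all genes with such a gap was not counted. The log2 fold change was 4.41 (SE 0.60, edgeR adjusted p = 0.00709). With the mouse as a block the log2 fold change was 4.10 and the adjusted p 0.0766. Leaving out mouse 2, 4, 5, or 6 gave an adjusted p of 0.0557, 0.0562, 0.0878, or 0.0585.

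Of the other peptides 3 passed the filter on low counts for *Cck* and 4 for each of the other classes, and none differed in these sums past the threshold. *Cck* was at 179 ± 56.9 CPM (SD, n = 7) in *Grp*-positive and 63.4 ± 41.5 CPM in *Grp*-negative cells, higher in 6 of 7 mice (log2 fold change 1.51, SE 0.37, edgeR adjusted p = 0.498). *Grp* was at 329 ± 91.1 CPM (n = 3) in *Calca*-positive and 79.1 ± 13.1 CPM in *Calca*-negative cells, higher in all 3 mice (2.21, SE 0.32, edgeR adjusted p = 0.263). *Cartpt* was at 6.07 ± 4.57 CPM in *Cck*-positive and 35.6 ± 35.3 CPM in *Cck*-negative cells (log2 fold change -2.50, SE 0.84, edgeR adjusted p = 1.0). Among the lists, all 6 ventral tegmental markers had a positive log2 fold change in *Adcyap1*-positive cells with a median of 1.69, against a median of 0.0098 over all genes tested. Of the 6 nigral markers 5 had a negative one, with a median of -2.21. The granin gene *Scg2* was at 3755 ± 1125 CPM in *Adcyap1*-positive and 2157 ± 478 CPM in *Adcyap1*-negative cells, higher in 8 of 8 mice (edgeR adjusted p = 0.158).

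Between the sexes, the share of *Cck*-positive cells differed most among the peptides. The male mice had 64.7, 71.1, 65.8, 79.2, and 66.7% *Cck*-positive cells and the female mice 22.2, 25.0, and 41.2%. The groups did not overlap, as for 6.03% of all 12106 genes tested, and the mean of 69.5% ± 5.93 (n = 5) compares with 29.5% ± 10.2 (n = 3). The exact permutation test, two-sided, gave p = 0.0179, the smallest that 56 splits of the mice allow, with an adjusted p of 0.458, where 6.86% of genes had an exact p under 0.05. The difference of 40.0 percentage points was 26.0 when cells counted from 1 count and 25.8 from 50 counts. It was 36.4–45.9 without 1 mouse. In the cells with all 4 dopamine genes, a setting chosen after seeing the data, it was 32.6 (exact p = 0.0179).

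The level of *Cck* per mouse was compared as well. The summed *Cck* counts were 113 ± 29.6 CPM in males and 92.9 ± 32.4 CPM in females (log2 fold change 0.30, SE 0.29, edgeR adjusted p = 0.849), and 1531 counts of female mouse 6 came from 1 cell. Without that cell, a setting chosen after seeing the data, mouse 6 went from 130.3 to 26.7 CPM and the females to 58.4 ± 27.4 CPM. Other genes whose shares did not overlap between the sexes, like 6.03% of all genes, included *Th*, *En1*, *Drd2*, and *Mbp* (exact p = 0.0179 and adjusted p = 0.458 for each). *Th* was positive in 98.8% ± 2.63 of male and 79.4% ± 11.3 of female cells, *En1* in 92.2% ± 4.09 and 60.6% ± 14.1, and *Drd2* in 74.4% ± 12.8 and 47.3% ± 7.41, while *Mbp* was positive in 24.1 and 43.4%. The summed level of the dopamine list was 12594.3–18249.6 CPM in males and 9893.1–12421.2 CPM in females, and that of the other peptides *Gal*, *Tac1*, *Penk*, *Pdyn*, *Sst*, *Npy*, *Trh*, *Ghrh*, *Crh*, *Nmb*, *Pomc*, and *Tac2* was 16.8–444 and 736–1568 CPM. Summed hypothalamic markers overlapped, with 15.5–208 CPM in males and 22.0–360.5 CPM in females. Males 3, 5, and 8 were captured on a machine that took no female. On the machine with both sexes the difference in *Cck* share was 42.5 percentage points (exact p = 0.1, the smallest that 10 splits allow). The females were 25, 33, and 36 d old and the males 24, 24, 27, 27, and 28 d by the sample labels, whose source names give another span of ages. The part of age, of the makeup of the sorted cells, and of the machine in the *Cck* difference was not tested.

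The other peptides overlapped between the sexes. The mean share was 44.0% ± 19.5 in males and 25.8% ± 16.5 in females for *Grp* (exact p = 0.214), 10.9% ± 7.06 and 1.85% ± 3.21 for *Calca* (exact p = 0.125), and 1.36% ± 1.94 and 7.63% ± 6.61 for *Vip* (exact p = 0.107). For *Nts* it was 0.952% ± 2.13 and 4.74% ± 4.28 (exact p = 0.286). *Vip* and *Nts*, positive in under 10 cells, were not among the 12106 genes of the adjustment. For *Cartpt* it was 17.9% ± 4.44 and 27.1% ± 15.0 (exact p = 0.25), and for *Adcyap1* 32.1% ± 13.5 and 39.5% ± 9.11 (exact p = 0.446). In the edgeR comparison of summed counts, 5 of 15529 genes (0.0322%) passed, namely *Ddx3y*, *Uty*, *Eif2s3y*, and *Kdm5d* of the Y chromosome, higher in males, and *Xist*, lower (all 5 named after their values were seen), where 8.12% had an unadjusted p under 0.05 and DESeq2 called 1.27%. None of the 7 peptides did, with adjusted p from 0.730 to 0.946.

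The shares of *Grp* were also set against the size of the C1 chip, a comparison chosen after seeing the data. On the large chips (mice 3, 4, and 5) 17.8, 8.33, and 28.9% of cells were *Grp*-positive, and on the medium chips (mice 1, 2, 6, 7, and 8) 27.8, 52.9, 41.2, 58.3, and 61.9%. The groups overlapped only between mice 1 and 5, and the means of 18.4% ± 10.3 and 48.4% ± 14.0 differed at an exact p of 0.0536 (adjusted p = 0.844), where 4.27% of genes had an exact p under 0.05. With 50 counts for a positive cell the means were 10.5 and 42.0% and the groups did not overlap (exact p = 0.0179), as 4.49% of genes did not from 10 counts. *Sox6* was positive in 52.5% ± 6.66 of cells on large and 21.3% ± 3.82 on medium chips (exact p = 0.0179), and *Gad2* in 4.99 and 31.2%. For *Cck* the chip sizes differed by -0.82 percentage points (exact p = 0.982). The part of chip size, which captures cells of different diameters, in the *Grp* shares was not tested.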

How the data were processed

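Single tdTomato+ cells were sequenced without molecular identifiers (SMARTer, Nextera XT, HiSeq 2500). The deposited counts are raw. For them the authors had used Trimmomatic 0.3.2 for trimming, TopHat2 2.1.1 for alignment to GRCm38.3, and featureCounts 1.5.0-p3 with the RefSeq annotation, leaving out reads on more than 1 gene. Wells with more than 1 cell had been left out by the authors. The 94 spike-in and transgene entries (0.00325% of counts) were left out here. Retained cells, a cutoff of 500000 counts, and 10 counts for a positive cell were used throughout. CPM values were computed here from the raw counts, per cell, or per mouse for summed counts. The full-quantile normalization that the authors chose for their own analysis was not used. The labelled sexes (5 male, 3 female) were used; the series description gives other numbers.

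Sums of counts over the cells of a mouse, or over each class of its cells (at least 3 cells in both classes, at least 3 mice), were tested with edgeR 4.0.16 (TMM, filterByExpr, quasi-likelihood, Benjamini-Hochberg) in R 4.3.3, with DESeq2 1.42.0 as the other tool. Classes with the same mouse number come from the same animal, and their deviations from the class means correlated at 0.00852–0.379. Shares and co-detection were tested over mice by exact permutation in Python 3.11.15 (scipy 1.17.1). Intervals are exact binomial (95%) and cover counting error only. Genes named are the peptides, genes of fixed lists, for cells with against without a peptide up to 3 genes per direction past an adjusted p of 0.05 with the same sign in every mouse and at least 10 CPM, and up to 3 neighbors at r of at least 0.5. The members and lists were chosen with earlier results of these data known. The scripts were tested on simulated data. Alternatives were other thresholds for cells and counts, thinning, no filter, DESeq2, technical covariates, the mouse block, and leaving out mice.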

Additional observations from a re-analysis of the deposited data

Results flagged for a closer look

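In 14 groups of male mice (7 genes, as share and as CPM; 3 females are too few) tested for a sample far from the others, of which chance sets apart about 1 in 20, 3 values stood apart. *Vip* in the summed counts of mouse 7 was at 163 CPM, which came almost wholly from the single cell with 3042 counts. *Nts* in mouse 8 was positive in 4.76% of cells, the only male with a positive cell, and was at 37.9 CPM in its summed counts, again from a single cell. The other males had 0 *Nts* counts, so any value above 0 in a single male would stand apart. The rate of 1 in 20 does not hold there, and both *Nts* values come from the same cell.

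*Cartpt* and *Adcyap1* differed between the sexes in how often they shared a cell. The excess of cells positive for both over the number expected was -0.71% ± 3.68 of cells in males (n = 5) and 9.17% ± 2.88 in females (n = 3), a difference of -9.88 percentage points (exact permutation test, two-sided, p = 0.0179, the smallest that 56 splits allow, and 1 of 21 pairs tested without adjustment). The 9 cells with *Cartpt* and *Adcyap1* alone, low in *Th* and high in *Tac1*, came from the 3 females (6 cells) and from males 2 and 5 (3 cells). As a mean over mice, *Tac1* was positive in 6.12% of male and 24.6% of female cells. The sexes overlapped, with a higher *Tac1* share in male 5 than in female 1.

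The peptides were also counted in the 175 cells left out for having under 500000 counts (median total 88436), where 0 positive cells would allow a share of up to 1.71%. Shares above that limit were 13.7% for *Cck* (24 cells), 8.57% for *Grp* (15), 7.43% for *Adcyap1* (13), 3.43% for *Cartpt* (6), and 2.29% for *Vip* (4). *Calca* was positive in 1 of these cells and *Nts* in 0.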

How the results depend on the processing

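DESeq2 called more genes than edgeR in every comparison, 190 against 5 between the sexes, 15, 51, 203, and 34 against 0 for *Cck*, *Grp*, *Calca*, and *Cartpt*, and 99 against 1 for *Adcyap1*. With the machine as a covariate 3 genes passed between the sexes, and 0 on the machine with both sexes, where the *Cck* share differed by 42.5 percentage points. Without a filter on low counts 1, 3, and 3 genes passed for *Grp*, *Calca*, and *Adcyap1*, and from 50 counts for a positive cell 2 did for *Grp*. For *Adcyap1*, 0 genes passed with the replicate block (the mouse) and 0 in cells with all 4 dopamine genes (*Adamts2* log2 fold change 4.13, edgeR adjusted p = 0.0773); the replicate block changed no other count. Positive from 1 count, mean shares were 14.7% for *Vip*, 32.7% for *Cartpt*, and 51.4% for *Adcyap1*, and from 50 counts 9.56% for *Cartpt*, where 2 pairs in place of 1 had p under 0.05. From 50 counts *Grp* turned to fewer cells than expected with *Sort1* (-0.287) and *Pitx3* (-0.514), as did *Adcyap1* with *Chga* (-0.365). The causes were not tested.

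Without 1 mouse, 4–5 genes passed between the sexes, 0–3 for *Grp*, 0–1 for *Cartpt*, 0–4 for *Adcyap1* (0 without mouse 2, 4, 5, or 6), 0–0 for *Cck* and *Calca*, and 0–0 for shares between the sexes. The *Cck* difference was 36.4–45.9 points, and 0–2 pairs had p under 0.05 (0–0 adjusted). Mean shares were 51.0–59.1% for *Cck*, 33.6–41.3% for *Grp*, 2.56–4.24% for *Vip*, 1.52–2.71% for *Nts*, 6.04–8.56% for *Calca*, 18.4–22.7% for *Cartpt*, and 32.7–38.3% for *Adcyap1*. Of 273 alternatives over the pairs of peptides, 260 kept their side of 0.05, 7 lost it, and 6 gained it, and over peptides with the listed genes under 0.05, 470 kept it, 242 lost it, and 3 changed direction. *Vip*- and *Nts*-positive cells were not compared across genes because no mouse had 3 of them. The number of mice limits the exact tests, and thinning to a common depth left 119 of 126 *Cck*-positive and 30 of 41 *Cartpt*-positive cells.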

Other observations

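Across the 209 cells, with the mean of each mouse subtracted, the genes most like *Grp* in log2(CPM + 1) were *Neurod6* (Pearson r = 0.64), *Ppp1r17*, an inhibitor of protein phosphatase (0.57), and *Igfbp4*, a binding protein of insulin-like growth factors (0.52). Those most like *Adcyap1* were the semaphorin co-receptor *Nrp2* (0.58), the cannabinoid receptor *Cnr1* (0.57), and *Sorcs3*, a sorting receptor (0.56). *Cartpt* had *Pgr15l* (0.56), and no gene reached 0.5 for *Cck*, *Vip*, *Nts*, or *Calca*, whose best neighbor was also *Ppp1r17* (0.44). The cells share libraries and depth, and no test was made.

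Among other peptide genes, *Pomc* was positive in 36 of the 209 cells, *Penk* in 31, *Tac1* in 21, *Gal* in 20, *Ghrh* in 13, *Nmb* in 11, *Crh* in 6, *Sst* and *Npy* in 5 each, *Tac2* in 1, and *Pdyn* and *Trh* in 0. *Penk*, the enkephalin precursor, was at 34.0 ± 25.1 CPM in the summed counts of males and 242 ± 52.2 CPM in females (log2 fold change -2.84, edgeR adjusted p = 0.473), in a comparison where 8.12% of genes had an unadjusted p under 0.05.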
